A study of Mus musculus with 8 samples.

Results

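The transcripts of the MICOS complex and of its closest partners were followed in mouse heart. The members are 8 listed genes of 55471 gene rows measured, chosen by name, from a rule that uses no measured value, with earlier results of these data known. They are 5 MICOS subunit genes (Immt, Chchd3, Chchd6, Apoo and Apool), the outer membrane partner Samm50, and Phb and Stoml2, which encode inner membrane scaffold proteins. All 8 passed the filter on low counts and were among the 15084 genes tested.

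MICOS sits in the inner mitochondrial membrane at crista junctions, the narrow necks where cristae open to the boundary membrane. Immt (Mic60) forms the core of its larger arm together with Chchd3 (Mic19) and Chchd6 (Mic25), while Micos10 (Mic10) and Micos13 (Mic13) belong to the arm that holds the apolipoprotein O family members Apoo (Mic26) and Apool (Mic27). Samm50 joins the inner membrane complex to the outer membrane. Cardiolipin, the signature lipid of the inner membrane, is matured by tafazzin, the product of the gene mutated in Barth syndrome, and the heart is densely packed with mitochondria rich in cristae.

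RNA was sequenced from a small piece of heart of 4 WT and 4 TAZG197V mice at 14 weeks of age. TAZG197V males are hemizygous for a knocked-in missense change of glycine to valine in tafazzin, made by CRISPR/Cas9 in C57BL/6N zygotes and then crossed to C57BL6/J, and every cell of these mice carries it. No treatment was given to either group. The labels do not say whether WT mice were littermates or which chamber was sampled, and p-values below measure the spread between these libraries. Levels are given as CPM, counts scaled to library size by TMM, with libraries named by genotype and number.

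Library totals ran from 23055689 to 36301031 counts. The 8 ventricular cardiomyocyte markers, none at 0, summed to 59463 to 68273 CPM in WT and 50666 to 54808 CPM in TAZG197V, and 4 of the 8 were called lower, beside 15.1% of all genes tested. WT 2 stood apart by atrial markers (1094 CPM summed over 6 genes, 4.24 to 131 in the other 7 libraries) and by adipocyte markers (21.8 CPM summed). WT 1 also held atrial transcripts above the other 6 libraries, with Myl7 at 26.96 CPM and Sln at 9.81 CPM, while the 131 CPM of TAZG197V 2 was nearly all Nppa (126.6 CPM). WT 4 stood apart by red cell markers (55072 CPM summed, 227 to 1065 in the others), and neural markers were high in WT 4 and TAZG197V 4 (195 and 357 CPM summed). Fibroblast markers summed to 1139 to 1848 CPM in WT and 790 to 1148 in TAZG197V, endothelial markers to 762 to 1049 and 626 to 780, and macrophage markers to 188 to 219 and 174 to 279. Of these lists of 6 genes each, 3 fibroblast, 2 endothelial and 0 macrophage markers were called lower, and 0 of any of the 3 lists higher. In pieces of whole tissue, fewer cells of a type and less RNA per cell cannot be told apart, and the part of these markers in the results below was not tested. Taz itself, on chromosome X, had 63.8, 58.7, 61.9 and 59.3 CPM in WT 1 to 4 and 48.0, 50.4, 46.3 and 44.3 CPM in TAZG197V 1 to 4. It was lower in every mutant library, by a log2 fold change of -0.37 (SE 0.0551, adjusted p = 0.00124, edgeR), although the level of a transcript with a point mutation does not check the genotype.

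The members did not move as a block. Chchd6 rose about 2.8-fold in TAZG197V hearts, Chchd3 and Phb rose by a smaller amount, Apool fell, and Immt, Apoo, Samm50 and Stoml2 were not called. A gene was called at an adjusted p under 0.05, a change of more than 15% in either direction and a mean scaled count of at least 50. By this rule 3 members were called higher and 1 lower, or 4 of 8, where 33.5% of all genes tested were called (18.5% higher and 15.1% lower). In 4 of 8 members the libraries of the genotypes did not overlap, 3 of them with TAZG197V above and 1 below, where 33.2% of all genes tested did not overlap (19.3% above and 13.9% below). The members' median log2 fold change was 0.0764, beside -0.0132 over all genes tested. The calls of Chchd3 and Phb were not made in every fit. Only Chchd6 and Apool were called without TAZG197V 1 or without WT 1 and WT 2, or WT 2 and WT 4, together. Chchd6 and Apool alone were also called without both number 4 libraries when 2 surrogate variables, fitted covariates for unlabelled variation, were kept. Of the 2 in the main fit, the first weighed most on TAZG197V 4 (0.72) and WT 4 (0.47). The second weighed most on WT 2 (-0.84). The fits without 2 WT libraries had 1 surrogate variable and fewer libraries, and the part of each in the lost calls was not told apart.

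**Figure D1:**
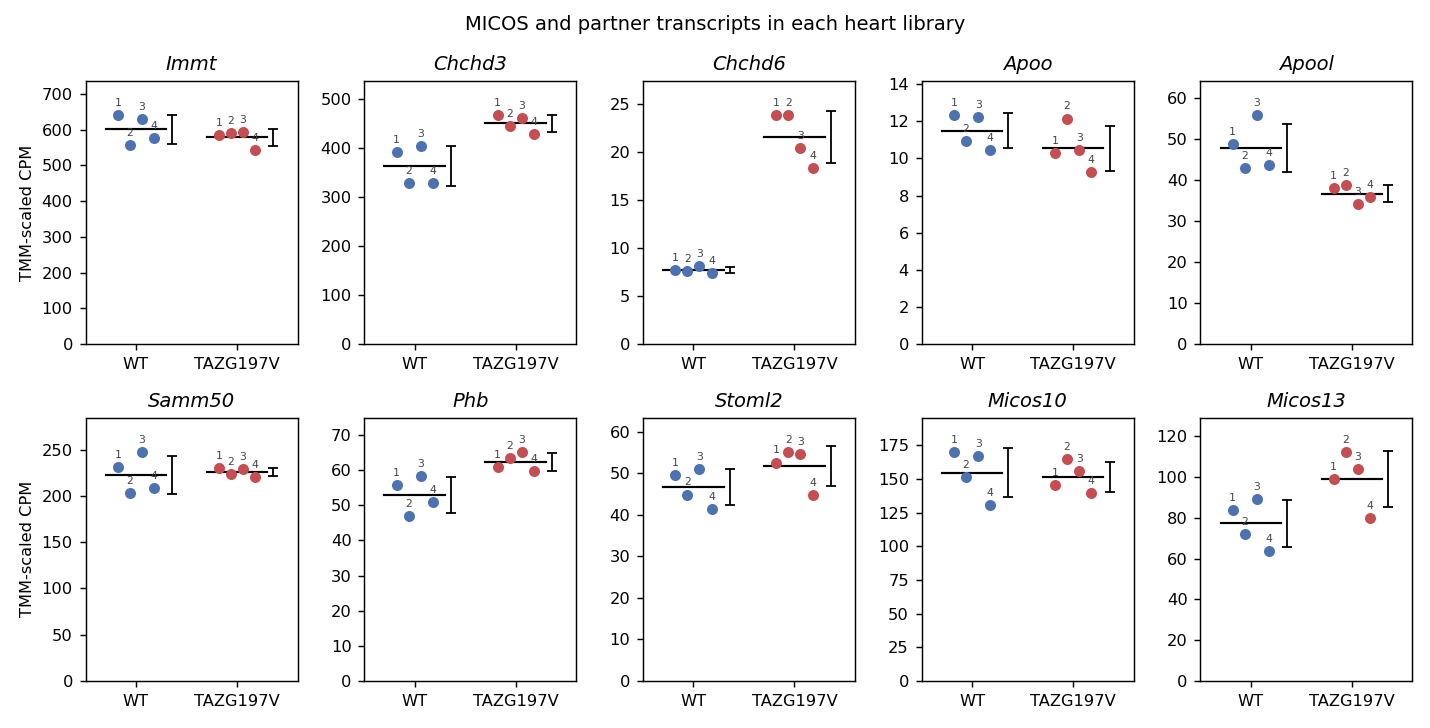
TMM-scaled CPM (linear axes from 0) of the 8 members and of Micos10 and Micos13 in 4 WT and 4 TAZG197V libraries. Points are libraries with their numbers, lines are means and bars are ± SD; Chchd6, Chchd3 and Phb have every TAZG197V point above every WT point, Apool has every TAZG197V point below, and the other 6 panels overlap.

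Immt encodes the membrane-anchored core subunit that bends membrane at the junction (chromosome 6, 71831331 to 71877388, plus strand, mm10). Its levels were 639.8, 556.3, 629.9 and 575.5 CPM in WT 1 to 4 and 585.1, 590.4, 594.1 and 542.4 CPM in TAZG197V 1 to 4. The groups overlapped, with WT 1 and WT 3 above all mutant libraries and TAZG197V 4 the lowest of the 8. The means were 600.4 ± 40.8 and 578.0 ± 24.0 CPM (SD, n = 4 each), and the log2 fold change of -0.07 (SE 0.0612, adjusted p = 0.41, edgeR) was within this spread.

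Chchd3 and Chchd6 encode the paralogous coiled-coil-helix proteins that bind Immt on the intermembrane space side. Both genes lie on the minus strand of chromosome 6 (32790976 to 33060260 for Chchd3 and 89383146 to 89595652 for Chchd6, mm10). None of their 50-base windows occurs in another annotated gene, so their reads can be told apart. The 250 bases before the start of each gene are shown because these are the 2 MICOS subunit genes among the members that were called higher. They come from RefSeq on GRCm38.p6, on the minus strand, with Chchd6 at chr6:89595653-89595902 and Chchd3 at chr6:33060261-33060510, and capitals mark matches to the searched motifs described further on.
Chchd6: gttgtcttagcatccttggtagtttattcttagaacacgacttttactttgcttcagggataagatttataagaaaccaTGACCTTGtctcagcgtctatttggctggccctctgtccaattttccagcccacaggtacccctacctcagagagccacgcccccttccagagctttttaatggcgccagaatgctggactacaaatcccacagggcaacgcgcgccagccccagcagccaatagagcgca
Chchd3: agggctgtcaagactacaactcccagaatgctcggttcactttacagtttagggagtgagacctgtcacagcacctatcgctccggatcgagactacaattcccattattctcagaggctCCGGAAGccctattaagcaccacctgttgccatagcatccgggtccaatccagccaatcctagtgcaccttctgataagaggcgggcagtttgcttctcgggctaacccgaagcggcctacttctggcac

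Chchd6 had the largest change of the 8 members. It was measured at 7.71, 7.64, 8.19 and 7.46 CPM in WT 1 to 4, from 228, 278, 211 and 167 counts, and at 23.8, 23.8, 20.4 and 18.3 CPM in TAZG197V 1 to 4, from 656, 883, 633 and 500 counts. The lowest mutant library was far above the highest WT library, and the WT libraries were close together. The means were 7.75 ± 0.315 and 21.6 ± 2.71 CPM (SD, n = 4 each), with a log2 fold change of 1.47 (SE 0.0854, adjusted p = 1.34e-05, edgeR). Within lane the difference in mean log2 CPM was 1.63 in lane 7 and 1.30 in lane 8, with 2 libraries per genotype in each lane and no test. Chchd6 was called under all 20 other fits, with log2 fold changes of 1.42 to 1.54. By absolute log2 fold change it ranked 569 among the genes tested.

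Chchd3 was the more abundant of this pair. Its levels were 392.1, 328.5, 405.1 and 330.0 CPM in WT 1 to 4 and 467.5, 445.6, 462.7 and 429.6 CPM in TAZG197V 1 to 4. Every mutant library was above every WT library, by a small margin over WT 3. The means were 363.9 ± 40.4 and 451.3 ± 17.3 CPM (SD, n = 4 each), with a log2 fold change of 0.30 (SE 0.0752, adjusted p = 0.0147, edgeR). The call was lost without TAZG197V 1 (log2 fold change 0.28, adjusted p = 0.0535, edgeR), without WT 1 and WT 2 (0.29, adjusted p = 0.0612, edgeR) and without WT 2 and WT 4 (0.17, adjusted p = 0.0687, edgeR). It was lost as well without both number 4 libraries at 2 surrogate variables (0.18, adjusted p = 0.194, edgeR).

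The balance within this pair was compared inside each library, which needs no scaling between libraries. The log2 ratio of Chchd6 to Chchd3 counts was higher in every TAZG197V library, by 1.155 on the log2 scale or 2.23-fold (exact permutation test, two-sided, 4 against 4, p = 0.0286, adjusted p = 0.0476 over 5 ratios). This p is the smallest that the 70 assignments of 8 libraries allow. Taken per length of the principal transcript, Chchd6 stood at 2.96% of Chchd3 in WT and 6.61% in TAZG197V hearts, so Chchd3 remained the more abundant transcript in all 8 libraries.

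Apoo and Apool encode related subunits of the apolipoprotein O family, and Apool is known to bind cardiolipin. Both genes lie on the plus strand of chromosome X (94367117 to 94417093 for Apoo and 112311334 to 112372755 for Apool, mm10). The 250 bases before the RefSeq start of Apool are shown because it is the only member called lower (GRCm38.p6, plus strand, chrX:112311102-112311351, motif matches in capitals). The GENCODE model of the gene begins within the last bases of this stretch.
Apool: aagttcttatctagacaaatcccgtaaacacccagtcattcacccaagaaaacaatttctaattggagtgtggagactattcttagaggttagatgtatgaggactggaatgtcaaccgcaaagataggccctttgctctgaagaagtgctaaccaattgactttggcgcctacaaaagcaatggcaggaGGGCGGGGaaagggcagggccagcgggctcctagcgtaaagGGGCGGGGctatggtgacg

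Apool had 48.9, 43.0, 55.8 and 43.8 CPM in WT 1 to 4 and 38.2, 38.8, 34.2 and 35.8 CPM in TAZG197V 1 to 4. Every mutant library was below every WT library. The means were 47.9 ± 5.92 and 36.7 ± 2.13 CPM (SD, n = 4 each), with a log2 fold change of -0.40 (SE 0.0852, adjusted p = 0.0076, edgeR). Apool was called lower under all 20 other fits, with log2 fold changes from -0.59 to -0.31, and the within-lane differences in mean log2 CPM were -0.25 in lane 7 and -0.50 in lane 8.

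Apoo had 12.3, 10.9, 12.2 and 10.4 CPM in WT 1 to 4 and 10.3, 12.1, 10.5 and 9.24 CPM in TAZG197V 1 to 4. The groups overlapped, and the log2 fold change of -0.13 (SE 0.0862, adjusted p = 0.248, edgeR) was not called. Of the 50-base windows of Apoo, 41.2% occur in another gene, nearly all in the processed pseudogene Apoo-ps on chromosome 13, which itself had 14 to 31 counts per library, so the level of Apoo is uncertain. The log2 ratio of Apoo to Apool counts was higher in every TAZG197V library, by 0.25 (exact permutation test, two-sided, p = 0.0286, adjusted p = 0.0476 over 5 ratios). Per length of the principal transcript, Apoo stood at 41.8% of Apool in WT and 49.7% in TAZG197V, and over all annotated exons at 66.9% and 79.6%.

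**Figure D2:**
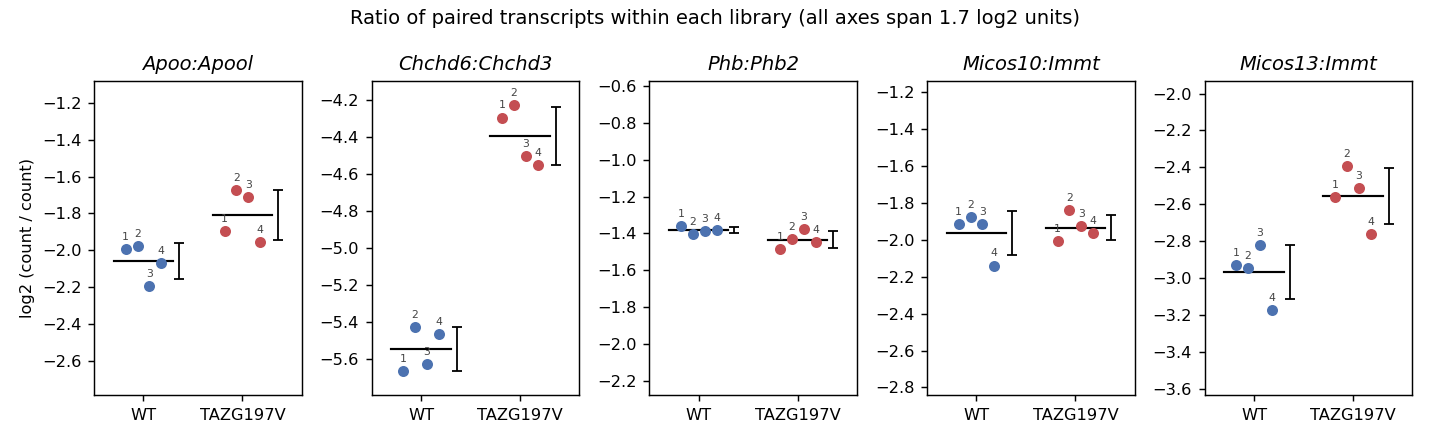
Log2 ratio of the counts of 2 genes within each library for the 5 ratios tested, with axes of equal span. Points are numbered libraries, lines are means and bars are ± SD (n = 4 each); Chchd6:Chchd3, Apoo:Apool and Micos13:Immt are higher in every TAZG197V library, by 1.155, 0.25 and 0.41, while Phb:Phb2 and Micos10:Immt overlap.

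The 2 subunits outside the member list, the Mic10 and Mic13 genes, differed from each other. Micos10 encodes the small hairpin protein that oligomerises and curves the membrane, and it had 169.9, 151.2, 166.8 and 130.6 CPM in WT 1 to 4 and 145.7, 164.8, 156.2 and 139.2 CPM in TAZG197V 1 to 4. The groups overlapped (log2 fold change -0.02, SE 0.072, adjusted p = 0.8293, edgeR). Micos13, which encodes the protein that links both arms, had 84.0, 72.1, 89.3 and 63.9 CPM in WT 1 to 4 and 99.2, 112.3, 104.1 and 80.2 CPM in TAZG197V 1 to 4. It was called higher (log2 fold change 0.35, SE 0.0663, adjusted p = 0.00436, edgeR), yet TAZG197V 4 lay inside the WT range. The call was lost with no surrogate variables (0.36, adjusted p = 0.0674, edgeR) and with lane in their place (0.35, adjusted p = 0.0758, edgeR). Without both number 4 libraries at 2 surrogate variables it was also lost (0.24, adjusted p = 0.148, edgeR).

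Set against Immt inside each library, Micos13 was higher in every mutant library, by 0.41 on the log2 scale (exact permutation test, two-sided, p = 0.0286, adjusted p = 0.0476 over 5 ratios). For Micos10 the mutant minus WT difference of the ratio to Immt was 0.03 (exact permutation test, two-sided, p = 0.8, adjusted p = 0.8), and the groups overlapped.

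Samm50 encodes the beta-barrel protein of the outer membrane sorting machinery that contacts MICOS (chromosome 15, 84192241 to 84217267, plus strand, mm10). It had 231.0, 203.5, 247.4 and 208.1 CPM in WT 1 to 4 and 230.5, 223.6, 229.0 and 220.5 CPM in TAZG197V 1 to 4. The mutant libraries fell between WT 4 and WT 1. Its log2 fold change was 0.01 (SE 0.0661, adjusted p = 0.918, edgeR), and the sign turned under 9 of 20 other fits.

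Around Samm50, a list of 8 genes held outer membrane bridge and sorting partners, together with Gfer and Chchd4 of the intermembrane space. Of these 8, 4 were called higher (Mtx2, Tmem11, Chchd4 and Gfer) and 0 lower, beside 18.5% higher and 15.1% lower over all genes tested. Their median log2 fold change was 0.33 beside -0.0132. The largest changes were those of Gfer and Chchd4, which encode the sulfhydryl oxidase and the receptor of the disulfide relay that imports the coiled-coil-helix proteins. Gfer went from 10.9 ± 1.48 to 17.3 ± 1.51 CPM (log2 fold change 0.64), with 20.6% of its 50-base windows found in other genes, and Chchd4 from 27.6 ± 2.42 to 42.2 ± 2.44 CPM (0.62). Mtx2, a metaxin of the sorting complex, rose from 96.7 ± 9.42 to 133.1 ± 10.4 CPM (0.45, adjusted p = 0.000932, edgeR). Mtx1 was not called (0.21, adjusted p = 0.0766, edgeR), and 30.05% of its exon bases overlap other genes. The 4 calls were also made without WT 1 and WT 2 and without WT 2 and WT 4, and 3 of them without both number 4 libraries at 2 surrogate variables.

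Phb and Stoml2 encode scaffold proteins of a common superfamily that gather inner membrane lipids, cardiolipin among them. Phb (chromosome 11, 95666957 to 95680773, plus strand, mm10) had 55.8, 47.0, 58.3 and 50.8 CPM in WT 1 to 4 and 60.9, 63.6, 65.2 and 59.7 CPM in TAZG197V 1 to 4. Every mutant library was above every WT library, with little room between WT 3 and TAZG197V 4. The means were 53.0 ± 5.06 and 62.3 ± 2.48 CPM (SD, n = 4 each), with a log2 fold change of 0.21 (SE 0.0614, adjusted p = 0.0253, edgeR) and a fold of 1.16, close to the cut-off of 15%. Phb was called under 10 of 20 other fits and not by DESeq2 (0.20, adjusted p = 0.0523), without WT 1 and WT 2 (0.19, adjusted p = 0.124, edgeR) or without WT 2 and WT 4 (0.12, adjusted p = 0.215, edgeR). It was also lost without WT 1, WT 2, TAZG197V 1, TAZG197V 2 or TAZG197V 3, each left out alone (0.19 to 0.22, adjusted p = 0.0457 to 0.0796, edgeR), as the fold or the p missed its cut-off. Of its 50-base windows, 30.3% occur in other genes, mainly the pseudogene Gm7666, which had 3 to 11 counts per library.

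Phb2, the other prohibitin and the partner of Phb in the ring complex, rose from 138.0 ± 12.5 to 168.4 ± 3.99 CPM (log2 fold change 0.27, adjusted p = 0.00838, edgeR). This call too was lost without WT 1 and WT 2 (0.24, adjusted p = 0.0637, edgeR), without WT 2 and WT 4 (0.17, adjusted p = 0.0542, edgeR) and without both number 4 libraries at 2 surrogate variables (0.16, adjusted p = 0.222, edgeR). The log2 ratio of Phb to Phb2 differed by -0.05 between genotypes (exact permutation test, two-sided, p = 0.114, adjusted p = 0.143 over 5 ratios).

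Stoml2 (chromosome 4, 43027690 to 43031710, minus strand, mm10) had 49.6, 44.9, 51.0 and 41.3 CPM in WT 1 to 4 and 52.6, 55.2, 54.7 and 44.7 CPM in TAZG197V 1 to 4. TAZG197V 4 lay inside the WT range, and the log2 fold change of 0.14 (SE 0.0547, adjusted p = 0.0708, edgeR) was not called. Stoml2 shares 16.6% of its exon bases with the noncoding gene Gm26643 on the opposite strand, and without a stated strand setting their reads cannot be told apart.

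Of 8 prohibitin partners and inner membrane proteases, 3 were called higher and 2 lower, or 5 of 8 beside 33.5% of all genes tested, with a median log2 fold change of 0.11. C1qbp, a matrix protein, rose from 98.1 ± 10.3 to 150.6 ± 8.98 CPM (0.59), and Afg3l2, a subunit of the matrix-facing AAA protease, rose from 192.6 ± 24.4 to 275.9 ± 35.98 CPM (0.48). Spg7, the partner subunit of Afg3l2, fell from 113.5 ± 5.72 to 96.1 ± 5.18 CPM (-0.24, adjusted p = 0.0141, edgeR). Oma1, the stress-activated protease that cleaves Opa1, fell from 33.6 ± 2.49 to 28.3 ± 0.454 CPM (-0.24, adjusted p = 0.0162, edgeR). Without WT 2 and WT 4, 2 were called higher and 3 lower, and without WT 1 and WT 2, 2 higher and 0 lower. The call of Spg7 was lost without WT 1, that of Oma1 without WT 3 or TAZG197V 2, and both without TAZG197V 1. Without both number 4 libraries at 2 surrogate variables, Afg3l2 and C1qbp were called higher and Oma1 lower, and Spg7 was not called.

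**Figure D3:**
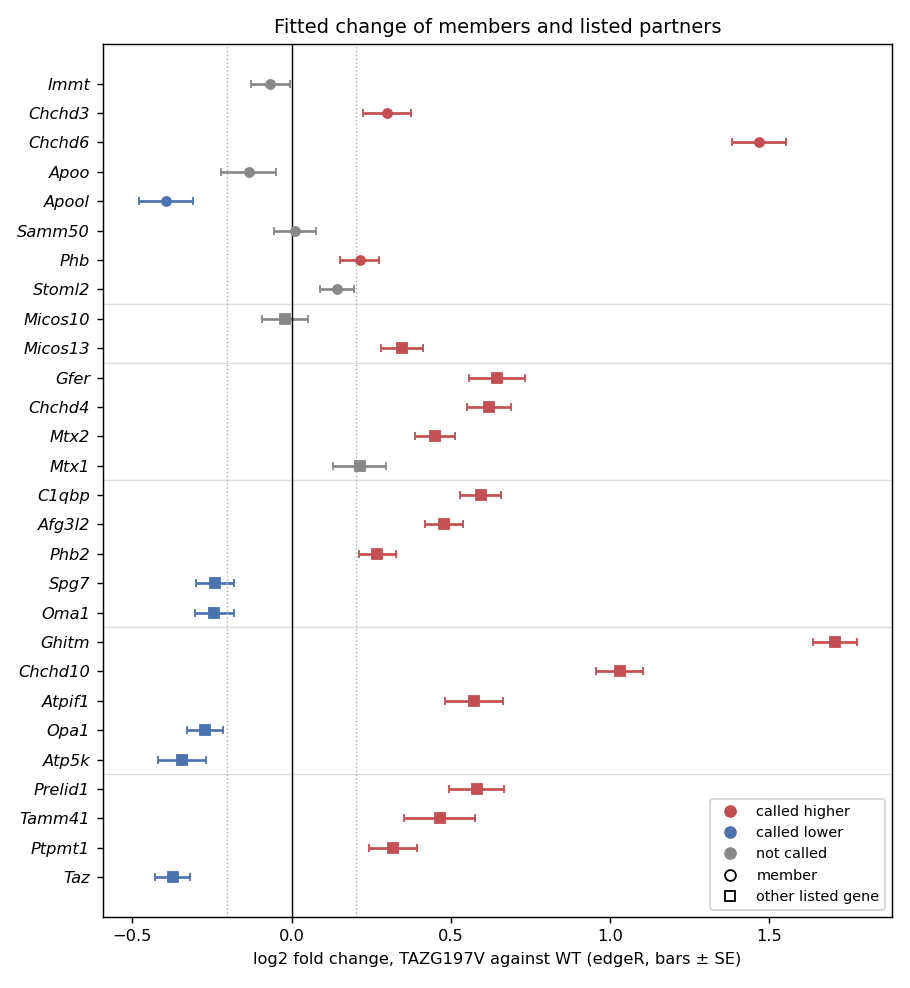
Fitted log2 fold change of TAZG197V against WT with bars of ± SE (edgeR, 4 libraries each) for the 8 members (circles) and the named genes of the 5 partner lists (squares). Red marks genes called higher, blue called lower and grey not called, and dotted lines mark the cut-off of a 15% change; Ghitm at 1.71 and Chchd6 at 1.47 lie farthest to the right, and Apool at -0.40 is the lowest.

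Among 10 genes that act on crista shape, 3 were called higher and 2 lower, or 5 of 10 beside 33.5% of all genes tested, with a median log2 fold change of -0.04. Ghitm, which encodes a multispanning inner membrane protein involved in cristae organisation, rose from 701.4 ± 30.4 to 2316 ± 130 CPM (log2 fold change 1.71, adjusted p = 1.75e-06, edgeR). Chchd10, a coiled-coil-helix protein of the intermembrane space, rose from 269.4 ± 27.6 to 559.5 ± 33.2 CPM (1.03, adjusted p = 3.85e-05, edgeR). Atpif1, the inhibitor of ATP synthase hydrolysis, was called higher (0.57), with 33.7% of its exon bases under a gene on the other strand. Opa1, the dynamin-like GTPase that fuses inner membranes and keeps junctions narrow, fell from 287.8 ± 14.2 to 240.4 ± 6.95 CPM (-0.27, adjusted p = 0.00683, edgeR), a call lost without both number 4 libraries at 2 surrogate variables (-0.28, adjusted p = 0.0595, edgeR). Atp5k, the e subunit of ATP synthase at its dimer interface, fell from 281.4 ± 28.6 to 221.1 ± 11.8 CPM (-0.34, adjusted p = 0.0079, edgeR).

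Of 10 cardiolipin synthesis and remodelling genes, 4 were called higher and 1 lower, or 5 of 10 beside 33.5% of all genes tested, with a median log2 fold change of 0.08. The lower gene was Taz. Among those higher, Tamm41, the enzyme that makes CDP-diacylglycerol in mitochondria, went from 5.24 ± 0.607 to 7.03 ± 0.607 CPM (0.46, adjusted p = 0.0125, edgeR). Prelid1 (0.58) and Ptpmt1 (0.32) were called higher too, but 51.5% and 46.1% of their 50-base windows occur in neighbouring genes. The number called higher was 5 without WT 1 and WT 2, 2 without WT 4, 1 without WT 2 and WT 4, and 0 without both number 4 libraries at 2 surrogate variables, with Taz called lower each time.

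Levels were compared between genes per kilobase of principal transcript. In WT hearts the order from high to low in CPM per kilobase was Chchd3 (234.8), Immt (220.1), Micos13 (102.4), Micos10 (60.7), Samm50 (48.1), Apool (35.2), Phb (29.5), Stoml2 (24.9), Apoo (14.6) and Chchd6 (6.91). The WT ranges of Chchd3 and Immt overlapped, as did those of Micos10 and Samm50, of Apool and Phb, and of Phb and Stoml2. In TAZG197V hearts Apool stood below Phb and Stoml2 at 27.04 CPM per kilobase, overlapping Stoml2 at 27.6. Chchd6 at 19.3 stood above Apoo at 13.4, with no overlap, though the level of Apoo is uncertain from the windows shared with its pseudogene. These places depend on the length used. Over all annotated exons, 11353 bases in place of 2728 for Immt, the WT level of Immt was 52.9 CPM per kilobase, below Chchd3, with a range that overlapped those of Micos13 and Micos10. On the same scale the WT mean of Apool was already below those of Phb and Stoml2 (13.7 beside 18.9 and 15.5 CPM per kilobase), with overlap between Apool and Stoml2. Chchd6 at 8.54 and Apoo at 8.39 CPM per kilobase then overlapped in TAZG197V, while Chchd6 stood below Apoo in WT on either length (3.06 beside 9.15 over all exons).

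**Figure D4:**
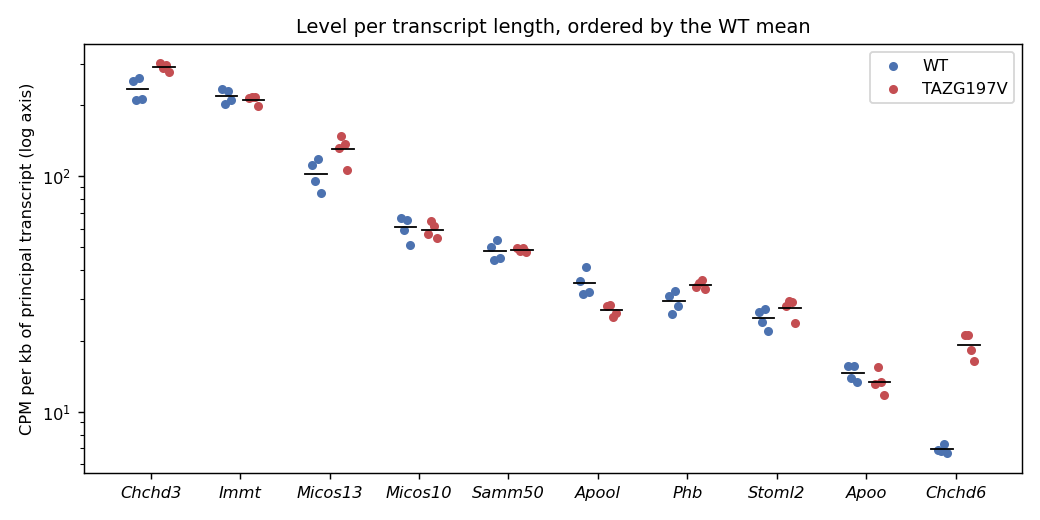
CPM per kilobase of principal transcript (log axis) for the 8 members, Micos10 and Micos13, ordered by the WT mean. Points are libraries and lines are means. Chchd6 is the lowest of the 10 genes in WT at 6.91 and stands above Apoo in TAZG197V at 19.3. It does not hold this place over all annotated exons, where both genes overlap at 8.54 and 8.39. The level of Apoo is uncertain from the windows shared with its pseudogene.

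The members shared a pattern between libraries of the same genotype. WT 2 and WT 4 both lay below WT 1 and WT 3 in 8 of 8 members, an arrangement that 18.9% of all genes tested had. TAZG197V 4 was the lowest mutant library in 7 of 8 members (36.9% of all genes tested), with Apool the exception. This pattern was noticed in the data, and for Chchd6 it rests on a small gap (7.64 CPM in WT 2 and 7.71 in WT 1). WT 2, WT 4 and TAZG197V 4 stood apart by atrial, red cell or neural markers. WT 1, on the high side, also held atrial transcripts. Mitochondrially encoded genes made up 24.45, 22.77, 24.56 and 21.62% of counts in WT 1 to 4. In TAZG197V 1 to 4 they made up 22.04, 22.08, 23.09 and 23.52%. The cause of the pattern was not tested. The summed CPM of the 8 members was 1242 to 1468 in WT and 1360 to 1471 in TAZG197V.

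The genes most like Chchd6, by Pearson correlation of log2 CPM over the 8 libraries, were Gyg (0.999), Ascc2, Prmt3, Pmm1 and Nhp2 (0.998 each). These values are a description: the libraries fall into 2 clusters by genotype, so a gene with a steady step between genotypes reaches a high value. Mean levels went from 159.9 to 496.4 CPM for Gyg, the glycogen primer, from 15.7 to 122.4 for Pmm1, a phosphomannomutase, and from 9.74 to 31.8 for Nhp2, a small nucleolar ribonucleoprotein. They went from 17.1 to 41.4 for Prmt3, an arginine methyltransferase, and from 27.8 to 54.6 for Ascc2.

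Motif letters were searched on both strands from 250 bases before to 50 bases after each RefSeq start, and all 8 members had a window. The ERR motif CAAGGTCA occurred in 1 member, Chchd6, at position -171 on the reverse strand, and in 1.56% of all 32851 windows. The same letters occurred in Micos10, which is no member and was not called, at 1 site covered by its 2 overlapping windows (positions -163 and -87). The ETS motif CCGGAAG occurred in 3 members, Chchd3, Immt and Stoml2, and in 8.86% of all windows. The SP1 motif GGGCGGGG occurred in 1 member, Apool, at positions -60 and -19, and in 17.6% of windows. The antioxidant response letters TGACNNNGC occurred in 1 member, Apoo, and in 12.4% of windows. The NRF1 core GCGCATGC (2.71% of windows) and the CARE letters TGATGNAA (3.97%) occurred in 0 members. A match is a run of letters and not a bound site, and no binding was measured here.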

How the data were processed

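The deposited values were whole-number counts per Ensembl gene, made by the authors with bcl2fastq 2.20.0, STAR 2.7.3a on mm10 (at most 2 mismatches) and featureCounts of Subread 2.0.0 from 50 bp single-end reads. Annotation release, strand and multi-mapping settings are not given in the sources used here. A count table was joined for 8 libraries. Positions and shared 50-base windows came from GENCODE M21 (GRCm38), and promoter sequences from RefSeq GRCm38.p6. Genome sequence was used only as these promoter windows and annotated transcripts, and no protein table was used here.

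The analysis was run in edgeR 4.0.16 under R 4.3.3 (filterByExpr, TMM, quasi-likelihood F-test, two-sided) with 2 surrogate variables from svaseq in sva 3.50.0 (genotype protected, seed 1) and Benjamini-Hochberg adjustment over 15084 genes. This replaces the DESeq2 test of the study, which was run as an alternative (DESeq2 1.42.0). The SE is the log2 fold change divided by the square root of F. Log2 CPM used a prior count of 2. The fitting procedure was tested on simulated data with 200 or 0 genes changed. There it recovered most but not all changed genes and called a few unchanged ones. Far more genes, 5060, were called in the data, a setting that the simulations did not cover. The simulated fits found fewer than 2 surrogate variables, and the setting with 2 has no such check. To look for repeated libraries, pairs within a genotype were compared by chi-square over genes of 10 or more counts in all, which gave 10.2 or more per gene. At these depths counting error is small for all but the lowest genes, and it leaves out the spread between mice. Count ratios were tested by exact permutation.

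Members, lists, tests and motifs were chosen with earlier results of these data known. The text names every member, Taz, Opa1, Phb2, Mtx1, Mtx2, both other MICOS subunits, up to 3 called genes in each direction per list, and the 5 genes most like the member of largest change. Lane numbers were read from file names, with libraries 1 and 2 of each genotype in lane 7 and 3 and 4 in lane 8. Alternatives were DESeq2, other covariates, other scaling, no low-count filter, other call rules and omission of libraries. Omission of WT 2 with WT 1 or with WT 4 and the length over all annotated exons were chosen after seeing the data. Omission of both number 4 libraries was planned with no number of surrogate variables set. It was run with 2 first, and the form with the number estimated again was chosen after the count of that fit was seen.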

Additional observations from a re-analysis of the deposited data

Results flagged for a closer look

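Samples far from the others of their group were looked for in 40 sets of 4 libraries, by the gap to the nearest library over the range of the set. Chance alone flags about 1 in 20 sets, which is 2 here, and 2 were found. Immt in TAZG197V had a gap of 0.832, with TAZG197V 4 at 9.08 log2 CPM and the other 3 libraries at 9.19 to 9.21. The log2 ratio of Micos10 to Immt in WT had a gap of 0.855, with WT 4 at -2.14 and the other 3 libraries at -1.92 to -1.88. WT 4 is the library high in red cell markers, and TAZG197V 4 the library highest in neural markers.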

How the results depend on the processing

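The count of genes called was 5060, and 3675 to 5243 with 1 library left out. It was 1843 at a fold change of at least 1.5, where 1 member, Chchd6, was called. Of the 8 members, 4 were called, and 2 to 4 with 1 library left out. Without WT 2 and WT 4 it was 2 members among 4277 genes, and without WT 1 and WT 2 it was 2 among 3662. Each of these fits had 1 surrogate variable, as estimated again, in place of 2. Without both number 4 libraries the count of genes was 5193 with the number of surrogate variables estimated again (1) and 2649 when kept at 2, with 4 and 2 members called. The fit with 2 was run first, and the number was estimated again after its count was seen. Chchd6 and Apool were called, and Chchd6, Apool, Chchd3, Phb, Apoo, Immt and Stoml2 kept their direction, under all 20 other fits.

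Samm50 turned to -0.00128 with DESeq2, -0.00233 with DESeq2 size factors, -0.12 without both number 4 libraries at 2 surrogate variables, -0.0971 without WT 2 and WT 4, -0.0135 without WT 1 and WT 2, and -0.0199 to 0.0619 in leave-one-out fits (-4.18e-06 the smallest in size). Micos10 ran from -0.108 to 0.0114 in leave-one-out fits, above 0 without WT 3 and without WT 1, and was 0.0158 without WT 1 and WT 2. The Micos10 to Immt ratio difference was -0.022 without both number 4 libraries, -0.0195 without WT 2 and WT 4, and -0.0313 to 0.0555 with 1 library left out. None of these was called, and the cause was not tested.

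With 1 library left out, the ratio differences were 0.203 to 0.297 for Apoo to Apool, 1.10 to 1.21 for Chchd6 to Chchd3 and 0.342 to 0.477 for Micos13 to Immt, with adjusted p from 0.0714 to 0.0952 (exact permutation). Without both number 4 libraries they were 0.293, 1.23 and 0.409 (adjusted p = 0.167, exact permutation), and without WT 2 and WT 4 they were 0.282, 1.26 and 0.318 (adjusted p = 0.222, exact permutation). Without WT 1 and WT 2 they were 0.321, 1.155 and 0.438 (adjusted p = 0.222, exact permutation). Such small sets cannot pass the threshold.

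With the replicate number as a block, 4272 genes and 4 members were called. Deviations of same-numbered libraries correlated at 0.0436 to 0.416, over 0.1 for numbers 1, 3 and 4 and under it for number 2, and 5 of 8 libraries correlated best with their own number. These values do not settle whether the numbers pair the libraries. The main fit took the libraries as unpaired, although same-numbered libraries share a sequencing lane and both number 4 libraries are high in neural markers. Depth limits the least abundant members most: Chchd6 rests on 167 to 883 counts per library.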
